A study of Mus musculus with 4 samples.

Results

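The genes described here encode splicing factors and nuclear RNA-binding proteins, and they were chosen by name. A probe set was a member if its 1 annotated gene symbol began with Srsf and a digit, or with Sf3, Snrp, Hnrnp, Srpk, Prpf, U2af or Khdrbs. This took 75 of the 12488 probe sets on the array. They name 56 genes on 17 chromosomes of the mouse RefSeq assembly GRCm38.p6, and 16 of these genes have more than 1 probe set. The rule reads names and no intensity, although it was drawn up with earlier results of these data known. A further 7 probe sets that join such a symbol to another gene's were left out. The RNA came from the dentate gyrus, the hippocampal field of granule cells, of young male C57BL/6J mice that had been handled by an experimenter and received nothing else. There is 1 array at each of 1, 2, 4 and 6 h, and the hours count from the final shock of other mice, whose samples are not analysed here. All 4 samples are therefore handled controls that differ in the hour of RNA extraction. How many mice stand behind a sample is not given in the sources used here. With 1 array at each hour, hour and array cannot be told apart. The p-values rest on the scatter of these 4 samples alone about a line on the hour. For each gene that scatter is moderated toward the variance of genes of like intensity.

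Splicing removes introns from pre-mRNA in the spliceosome, a machine assembled from small nuclear ribonucleoproteins (snRNPs). Most of these hold a small RNA in a ring of Sm proteins, with further proteins of their own. The U2 auxiliary factor and the SF3 complexes of the U2 snRNP define the end of the intron and the branch point. The Prp proteins act at various steps, from assembly to catalysis. SR proteins generally bind exons and favour their inclusion once kinases have phosphorylated their arginine-serine tails, while many hnRNP proteins oppose them. In neurons this balance sets which isoforms of receptors, channels and adhesion molecules are made.

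Values are array intensities on a linear scale, given in the order 1, 2, 4 and 6 h. The intensity of 1 probe set cannot be set against that of another, so comparisons run between hours within a probe set. Before log2 was taken, values below a floor of 38.3 (the 20th percentile of the table) were raised to it, and the brightest probe set stood for each gene. Testing required a mean log2 value of at least 7.41, which is the 40th percentile of gene means and equals an intensity of 170.4. Of the 56 genes, 49 were tested. The other 7 (Srpk2, Srpk3, Srsf10, Prpf31, Prpf39, Prpf4b and Snrpa1) had means under it, and none of the 49 had a value at the floor. Of the 19 probe sets that are not the brightest of their gene, 8 had a mean over the same threshold. For 8 of the 49 tested genes the probe set used is of shared or rule-breaking design (suffix f, r or s), so the transcript measured is less certain. These are Srsf2, Hnrnpdl, Snrpb, Snrpb2, Snrpe, Snrp1c-ps2, Sf3a2 and Sf3b2.

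The 4 arrays shared a mean intensity of 500.3 after trimming 2% at either end, while the median over all probe sets was 185.6, 187.3, 212.8 and 184.8. Markers fixed for the tissue check were present: all 7 granule cell markers with a probe set were tested, among them Calb1 (2542, 3026, 2506 and 2453), Dsp (948, 1362, 1089 and 1283) and Tdo2 (856, 921, 746 and 941). The summed intensity of those 7 was 5865, 6758, 5510 and 6138, and such a sum leans to its brightest genes. Markers of other cells were present too, with sums of 14922, 15558, 13089 and 12483 for 7 interneuron genes, 21516, 21727, 22644 and 23761 for 5 astrocyte genes and 10129, 10162, 10457 and 11538 for 5 oligodendrocyte genes. The sum was 7246, 7072, 8228 and 5868 for 4 genes of CA pyramidal and mossy cells, 7239, 7737, 7007 and 7741 for 6 microglial genes and 1235, 1218, 1184 and 799 for 4 endothelial genes. The sum of 3 choroid plexus markers was 273.6, 420.1, 2738 and 467.3, and Ttr, the transthyretin gene, supplied 2408 of it at 4 h. In such tissue RNA, fewer cells of a type and less RNA per cell cannot be told apart.

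No member had an expression course over the hours that passed the test. A line of log2 intensity on the hour was fitted with limma to all 4951 tested genes, and 0 of the 49 member genes had an adjusted p under 0.05, as did 0% of all genes. The smallest adjusted p among the members was 0.99993 with limma. At an unadjusted p under 0.05 there was 1 member with a positive slope, Srsf5, beside 1.09% of all genes, and 1 with a negative slope, Srpk1, beside 0.929% of all genes. The count of 2 was 4 of 49 without the 1 h sample (8.16%, beside 3.09% of all genes) and 1 of 51 without the 2 h sample (1.96%, beside 1.84%). It was 6 of 50 without the 4 h sample (12%, beside 2.75%) and 6 of 49 without the 6 h sample (12.2%, beside 9.74%). The slopes of the 49 members had a median of -0.01 log2 per h, with 20 positive and 29 negative, against a median of 0.00 over all genes tested, of which 2469 were positive and 2482 negative. These counts hold no shared direction over the hours, and the wider differences below are those of single genes and single arrays.

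**Figure D1:**
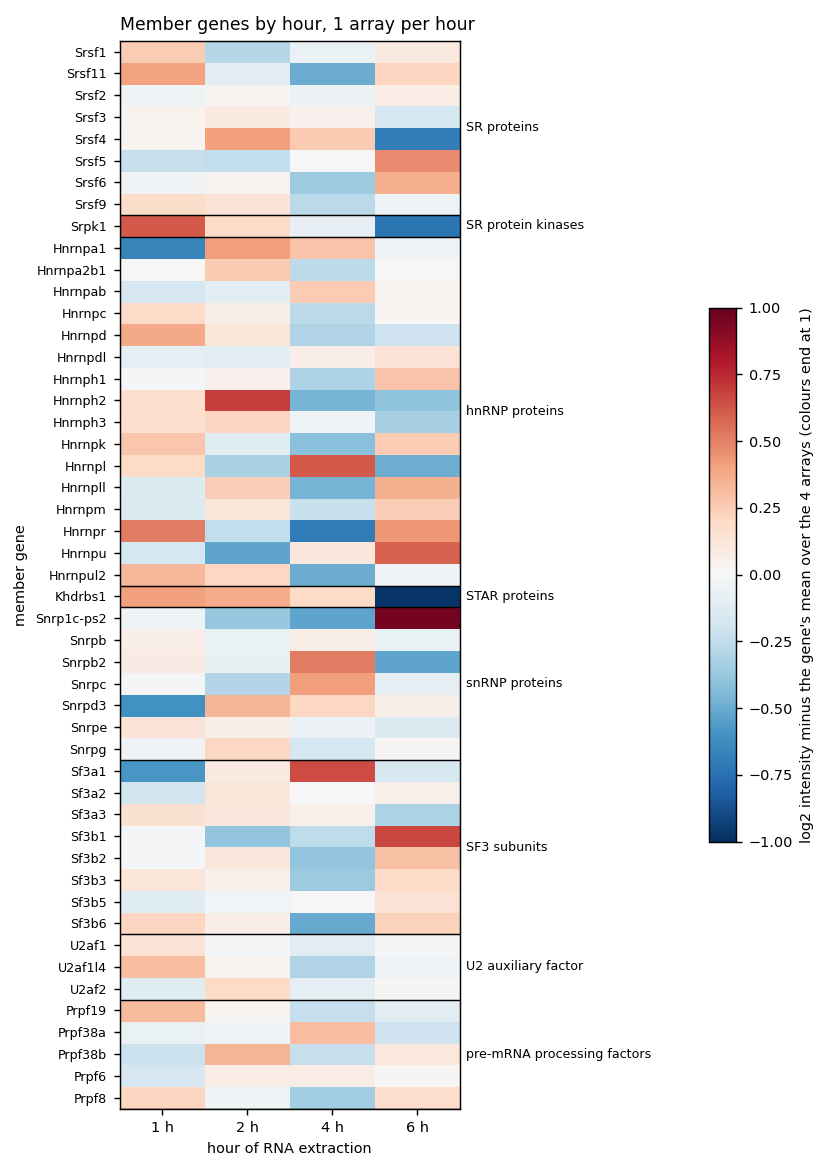
Log2 intensity of the 49 tested member genes (rows, by family) at each hour (columns, 1 array each), minus the mean of the gene over the 4 arrays. Khdrbs1 has its lowest value at 6 h and Snrp1c-ps2 its highest, and blue cells are most frequent at 4 h among the hnRNP genes.

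The SR proteins, whose tails of alternating arginine and serine are their common feature, had 9 genes and 16 probe sets, and 8 genes were tested. Srsf5, which encodes SRp40, had intensities of 1209.8, 1198, 1429 and 1974. The 6 h array was highest and the 1 and 2 h arrays lowest, with a slope of 0.15 ± 0.06 log2 per h (SE, n = 4), or 0.087 without the 6 h sample. Srsf4, the gene of the long-tailed SRp75, ran 639, 838, 756 and 389.9, with the 6 h array below the others by 1.64-fold or more. Its slope was -0.15 ± 0.08 log2 per h, but 0.06 without the 6 h sample, so the direction rests on that array. Srsf2, which encodes SC35, a protein that concentrates in nuclear speckles, stayed within 1.10-fold (4974, 5226, 4899.5 and 5376). Its mean intensity was 5119 ± 221 (SD, n = 4).

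Srsf11 read 1614, 1129, 867 and 1423 and Srsf6, the SRp55 gene, 785, 827, 625 and 1039. In both the 4 h array was the lowest, as it was in Srsf9 (857, 826, 626 and 728) and, by 1.51%, in Srsf2. Srsf1, the founding member of the family (SF2/ASF), read 394, 272, 315 and 354, lowest at 2 h. Srsf3, the smallest SR protein, also an adaptor in mRNA export, read 333, 347, 334 and 288, a span of 1.20-fold. Srsf10, a splicing repressor when dephosphorylated, was not tested and read 121, 186, 135 and 87.7. The family thus holds 1 gene that spanned over 2-fold, Srsf4 at 2.15-fold, among its 8 tested genes.

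Of the 3 SR protein kinase genes 1 was tested, and it was lower at each step. Srpk1, the kinase that loads phosphate onto the arginine-serine tails in the cytoplasm, had intensities of 488, 366, 302 and 192. The value at 1 h was 2.54 times that at 6 h. Its slope was -0.25 ± 0.09 log2 per h (SE, n = 4), and its unadjusted p, the smallest among the members with limma, became 0.99993 after adjustment. The slope stayed negative in each alternative and without any 1 sample, although several alternatives left its values, and so its slope, unchanged. Srpk2, the paralog expressed strongly in brain, was not tested: it read 143, 143, 33.1 and 127, level at 3 hours and under the floor at 4 h. Srpk3, known mainly from muscle, read 35.1, 26.9, 61.2 and 155, also not tested. Both of the other kinases thus had values near or under the floor, and neither shows a steady course.

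Outside the name rule, Clk1 and Clk4 encode nuclear kinases of the same tails. Clk1 read 1162, 1413, 1972 and 2017, higher at each step, with a slope of 0.16 ± 0.06 log2 per h (SE, n = 4), or 0.25 without the 6 h sample. Clk4 read 231, 245, 287 and 448, also higher at each step, with a slope of 0.19 ± 0.09, or 0.11 without the 6 h sample, while a second probe set of Clk4 was lowest at 2 h (233.0, 18.0, 166.3 and 134.3). Neither passed the test over all genes (adjusted p = 0.99993 for both with limma). Clk1 and Clk4 are named for their small unadjusted p, and the other tested Clk genes did not rise at each step. Clk2 read 591, 786, 826 and 662, with a slope of 0.02 ± 0.07 log2 per h (SE, n = 4). Clk3 read 729, 708, 744 and 688, with a slope of -0.01 ± 0.07.

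**Figure D2:**
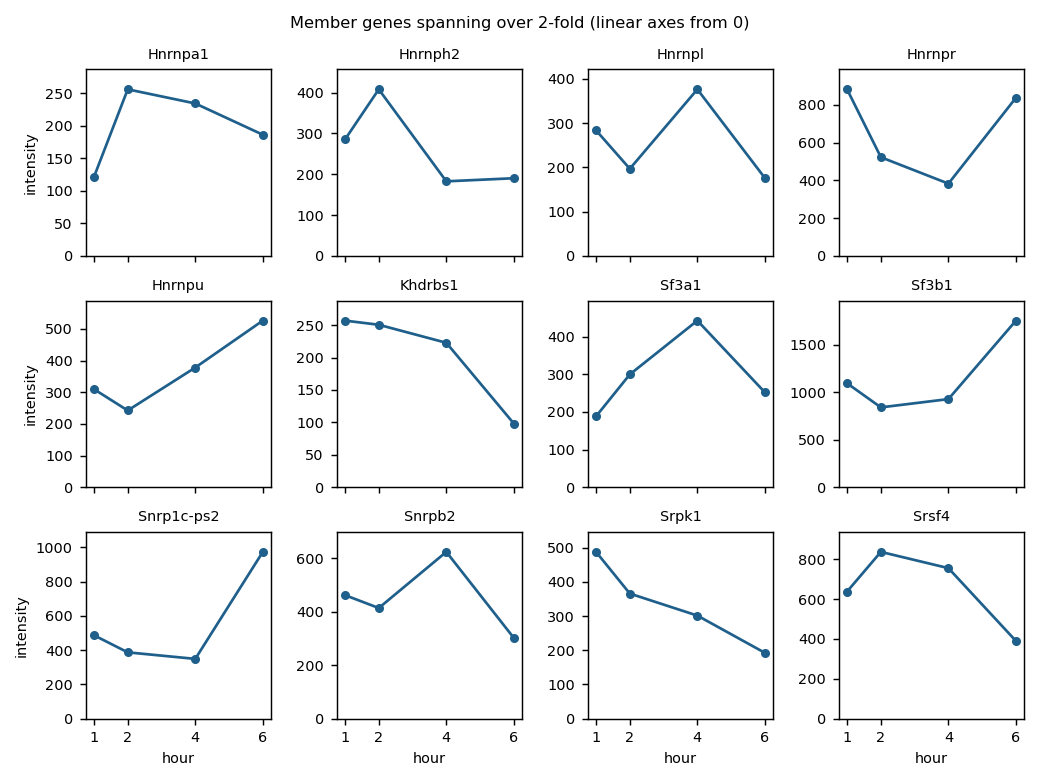
Intensity (linear axis from 0) against hour for the 12 tested member genes whose highest and lowest hours differ over 2-fold, with 1 array per point. Srpk1 and Khdrbs1 are lower at each step, and the other 10 turn at least once.

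The hnRNP genes, 16 genes on 22 probe sets, were all tested. These proteins coat nascent transcripts. Hnrnpr, a relative of the mRNA-localisation protein Syncrip, read 882, 522, 383 and 837. The 1 and 6 h arrays were high and the 4 h array low, a span of 2.30-fold. Hnrnpu, a nuclear scaffold protein that binds both RNA and chromatin, read 309.7, 242, 378 and 526, highest at 6 h, with a slope of 0.19 ± 0.09 log2 per h (SE, n = 4). Hnrnpd, the AUF1 gene, whose product binds AU-rich elements and guides mRNA decay, read 1189, 993, 741 and 792. There the 1 h array was highest and the slope was -0.12 ± 0.07, or -0.082 without the 1 h sample and -0.23 without the 6 h sample.

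Hnrnph2, which binds runs of G, read 285, 408, 183 and 190.3, with the 2 h array highest and the 4 and 6 h arrays lowest. Its close relatives had other courses: Hnrnph1 read 1990.3, 2079, 1631 and 2453 and Hnrnph3 546, 563, 471 and 386. Hnrnpa1, the classical binder of exonic silencers, read 121, 256, 234 and 186, lowest at 1 h, and its probe set can share signal with processed pseudogenes. Hnrnpl, which binds CA repeats, read 284, 197, 376 and 176, the only one of these with its highest value at 4 h. The 5 hnRNP genes over 2-fold were therefore Hnrnpr, Hnrnpu, Hnrnph2, Hnrnpa1 and Hnrnpl, each with its own order of hours.

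The remaining 8 hnRNP genes spanned under 2-fold. Hnrnpdl had a mean of 3598 ± 314 and Hnrnpa2b1, a sorting factor for transported mRNA, a mean of 3003 ± 447 (SD, n = 4 each). Hnrnpdl read 3355, 3315, 3766 and 3955 and Hnrnpa2b1 2987, 3575, 2483 and 2968. Hnrnpm read 1277, 1531, 1212 and 1673, Hnrnpk, a binder of C-rich RNA, 966, 735, 598 and 951, and Hnrnpul2 717, 664, 406 and 559.6. Hnrnpc, which binds U tracts, read 408, 370.4, 295 and 361, Hnrnpab 679, 708, 913 and 779 and Hnrnpll, known from splicing of Ptprc in T cells, 371, 485, 297 and 522. All of these but Hnrnpdl and Hnrnpab were lowest at 4 h.

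Khdrbs1 encodes Sam68, a STAR family protein that regulates activity-dependent splicing of neurexin in mice. Its 1 probe set read 257, 251, 223 and 98.2. The first 3 hours lay within 1.15-fold of each other and the 6 h array was 2.27-fold below the lowest of them. Of the 49 tested members it was the only one over 2-fold below every other hour at 6 h, beside 0.646% of all genes. Its slope over the hours was -0.27 ± 0.12 log2 per h (SE, n = 4), and -0.071 without the 6 h sample. On the 6 h array the interneuron, CA pyramidal and mossy cell and endothelial marker sums were at their lowest. The astrocyte, oligodendrocyte and microglial sums were at their highest, the microglial sum at 7741 against 7737 at 2 h. Only the measured CA pyramidal and mossy cell markers all followed their sum. Of the astrocyte markers only Slc1a2 was highest at 6 h, while Gfap, Aqp4 and Gja1 were highest at 1 h and Aldoc at 4 h. Microglial Cx3cr1 was lowest at 6 h (275). The part of these cell types in the 6 h values of the members was not tested.

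The snRNP proteins gave 8 genes on 10 probe sets, of which 7 genes were tested. Snrpb, the core Sm protein B, had the smallest span after Srsf2, 1.10-fold (10435, 9535, 10476 and 9518), with a mean of 9990.9 ± 537 (SD, n = 4). Both genes were read on probe sets of shared or rule-breaking design. The ring proteins Snrpe (1454, 1386, 1276 and 1203), Snrpg (1431, 1693, 1302 and 1481) and Snrpd3 (166, 319, 292 and 263) shared no order of hours: Snrpe was lower at each step, within 1.21-fold, and Snrpd3 was lowest at 1 h. Snrpc, which helps the U1 snRNP hold the start of the intron, read 1051, 869, 1425 and 998, highest at 4 h. Snrpb2, the U2 protein that pairs with Snrpa1, read 462, 414, 624 and 302, again highest at 4 h, with a span of 2.07-fold, and Snrpa1 itself, not tested, read 207, 137, 160.2 and 168.

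The widest span of the tested members, 2.79-fold, belonged to Snrp1c-ps2, annotated as a pseudogene. It read 486, 387, 348 and 973 and was the only one of the 49 over 2-fold above every other hour at 6 h, beside 0.121% of all genes. Its slope of 0.19 ± 0.10 log2 per h (SE, n = 4) turned to -0.15 when the 6 h sample was left out. By its name it derives from the U1 C protein gene, whose probe set (Snrpc, above) did not show the 6 h peak. Its probe set is of the type whose probes are shared by a sequence family, so the transcript measured is uncertain.

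The SF3 subunits are the U2 snRNP proteins that clamp the branch point, and all 8 genes were tested. Sf3b1, which embraces the branch point adenosine, read 1095, 841, 928 and 1755, with the 6 h array 1.60-fold or more above the others. Its slope was 0.15 ± 0.07 log2 per h (SE, n = 4), and -0.06 without the 6 h sample. Sf3a1, a scaffold of the SF3a trimer, read 188, 299.7, 443 and 252, highest at 4 h and lowest at 1 h. Its partners in the trimer differed: Sf3a2 read 3452, 4256, 3932 and 4051, and Sf3a3 573, 558, 536 and 416, lower at each step.

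The remaining SF3b subunits spanned 1.66-fold or less. Sf3b6, the p14 subunit at the branch point, read 1873, 1690.4, 1136 and 1890.0, Sf3b3 529, 501, 377 and 555 and Sf3b2 874, 954, 673 and 1079, each with its lowest value at 4 h. Sf3b5 read 1433, 1533, 1556 and 1727 and was the only tested member higher at every step, beside 2.65% of all genes. Lower at every step were 4 tested members (Srpk1, Khdrbs1, Sf3a3 and Snrpe), or 8.16%, beside 2.4% of all genes, and in Sf3a3 and Snrpe the whole course stayed within 1.38-fold and 1.21-fold.

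The start regions of the SF3a genes are shown because the 3 subunits form 1 complex and share a sequence there, although their intensities ran differently. Each line is the RefSeq window of 300 bases, 250 before and 50 after the annotated start, from GRCm38.p6, read along the gene, with the letters CCGGAAG (the core bound by ETS factors) or their reverse complement in capitals. Sf3a1 lies at chr11:4160104-4160403 on the + strand, Sf3a2 at chr10:80798485-80798784 on the + strand and Sf3a3 at chr4:124714611-124714910 on the + strand. The match begins at -7, -76 and -90 from the start.
Sf3a1: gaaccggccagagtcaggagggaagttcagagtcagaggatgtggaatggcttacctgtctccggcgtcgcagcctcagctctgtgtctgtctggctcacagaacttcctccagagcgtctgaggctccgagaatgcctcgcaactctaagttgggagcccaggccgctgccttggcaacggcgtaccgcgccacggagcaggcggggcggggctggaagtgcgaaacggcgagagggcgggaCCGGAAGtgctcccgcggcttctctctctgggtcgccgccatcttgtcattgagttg
Sf3a2: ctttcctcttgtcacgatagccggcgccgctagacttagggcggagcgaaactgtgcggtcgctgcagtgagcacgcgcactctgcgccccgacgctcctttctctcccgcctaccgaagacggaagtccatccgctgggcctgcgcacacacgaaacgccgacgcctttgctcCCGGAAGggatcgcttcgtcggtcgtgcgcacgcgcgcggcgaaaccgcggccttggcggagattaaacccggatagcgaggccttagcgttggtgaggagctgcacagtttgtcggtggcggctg
Sf3a3: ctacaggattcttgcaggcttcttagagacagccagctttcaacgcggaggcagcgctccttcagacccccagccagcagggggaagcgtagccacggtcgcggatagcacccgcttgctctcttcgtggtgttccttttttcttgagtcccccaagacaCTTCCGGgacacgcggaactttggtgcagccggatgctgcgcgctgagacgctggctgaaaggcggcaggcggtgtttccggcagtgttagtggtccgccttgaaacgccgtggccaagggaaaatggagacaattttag

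Over the members, windows were found for 49 of the 56 genes, 63 windows in all. These are not the 49 tested genes: untested Srpk2 and Srpk3 are among them, while the windows of tested genes set beside them hold no untested gene. The CCGGAAG letters, searched on both strands, were in 31.7% of the member windows, against 17.3% of 5238 windows of the tested genes and 8.86% of all 32851 windows. They were in 6 of 7 SF3 genes with a window (not in Sf3b1), 4 of 6 snRNP genes, 3 of 9 SR genes, 3 of 8 Prp genes and 1 of 14 hnRNP genes, that of Hnrnpd, and in 0 of 3 kinases and 0 of 2 U2AF genes. TGACGT, part of the site bound by CREB, was in 25.4% of member windows, against 12% of windows of tested genes. GGGCGG was in 66.7% of member windows and 63.2% of windows of tested genes. For ATTGG the shares were 47.6% in member windows and 36.8% in windows of tested genes. TATAAA was in 11.1% of member windows and CACGTG in 6.35%, against 7.85% and 10.8% of windows of tested genes. None of these 6 motifs contains another. The median number of CG pairs per window was 25 in members, 21 in tested genes and 7 in all windows.

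The windows of the genes with the smallest p in either direction are added for contrast. Srsf5 lies at chr12:80945249-80945548 on the + strand and has the letters at -90 and -23, while Srpk1, at chr17:28622472-28622771 on the - strand, has no match in its window. These matches describe letters and were not tested as binding sites.
Srsf5: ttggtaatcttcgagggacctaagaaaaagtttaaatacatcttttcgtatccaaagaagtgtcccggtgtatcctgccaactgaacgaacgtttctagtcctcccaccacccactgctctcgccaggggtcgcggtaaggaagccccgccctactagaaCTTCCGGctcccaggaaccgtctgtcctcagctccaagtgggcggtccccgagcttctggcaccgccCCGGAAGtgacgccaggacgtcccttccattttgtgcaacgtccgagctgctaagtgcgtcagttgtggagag
Srpk1: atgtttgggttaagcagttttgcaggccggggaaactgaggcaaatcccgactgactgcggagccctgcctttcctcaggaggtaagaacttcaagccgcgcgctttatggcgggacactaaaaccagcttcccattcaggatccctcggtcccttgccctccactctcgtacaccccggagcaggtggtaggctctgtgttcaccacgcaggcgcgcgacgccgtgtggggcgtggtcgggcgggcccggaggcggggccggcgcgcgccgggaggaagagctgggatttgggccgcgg

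The U2 auxiliary factor genes were all tested and none spanned over 2-fold. U2af2, the large subunit that binds the polypyrimidine tract, read 6434, 8032, 6562 and 7068, with a mean of 7024 ± 726 (SD, n = 4). The small subunit gene U2af1, whose product reads the AG at the end of the intron, was 813, 726, 679.9 and 724, and its relative U2af1l4 1039, 865, 685 and 826. Both small subunit genes were highest at 1 h and lowest at 4 h, whereas U2af2 was highest at 2 h and lowest at 1 h.

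The pre-mRNA processing factors had 8 genes on 10 probe sets, and 5 genes were tested. Prpf8, the large protein at the catalytic centre, read 2445, 2041, 1649 and 2375, with the 4 h array lowest. Prpf6, which bridges parts of the tri-snRNP, read 1309.8, 1547, 1546 and 1481, within 1.18-fold, and Prpf19, a ubiquitin ligase of the activated spliceosome, read 1863, 1527, 1274 and 1385. Prpf38a read 397, 406, 515 and 359 and Prpf38b 207, 304, 205 and 259. Among those not tested, Prpf31, a U4/U6 protein known from inherited retinal degeneration in people, read 113, 34.6, 294 and 169.9, under the floor at 2 h and highest at 4 h, the kinase gene Prpf4b read 75.9, 140.1, 92.3 and 9.4 and Prpf39 70.9, 103, 64.6 and 28.7.

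The 12 members over 2-fold made up 24.5% of the 49, beside 15% of all genes tested. A span between single arrays has no replicate behind it. Without the 6 h sample 4 of 49 members spanned over 2-fold (8.16%, beside 10.4% of all genes). Without the 1 h sample 9 of 49 did (18.4%, beside 10.3%), without the 2 h sample 8 of 51 (15.7%, beside 10.1%) and without the 4 h sample 8 of 50 (16%, beside 7.41%). With log2(intensity + 50) the count was 7, beside 10% of all genes. With no filter, so that every member gene was counted, it was 18 of 56, or 32.1%, the same share as the 32.1% of all genes. These equal shares pool unlike mixes of faint and bright genes, since 49 of 56 members passed the filter against 4951 of 8251 genes. They therefore do not compare members with other genes of like intensity.

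The hour at which members were lowest was less even. The 4 h array held the lowest of the 4 values in 24 of the 49 members, or 49%, beside 29.2% of all genes tested. The 1 h array held it in 8, the 2 h array in 6 and the 6 h array in 11, beside 24.5%, 23.2% and 23.1% of all genes. Highest values fell at 1 h in 16 members, at 2 h in 12, at 4 h in 7 and at 6 h in 14, beside 23.1%, 23.2%, 31.4% and 22.3% of all genes. No test was made of these counts, which rest on 1 array at 4 h and were chosen after the values were seen.

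**Figure D3:**
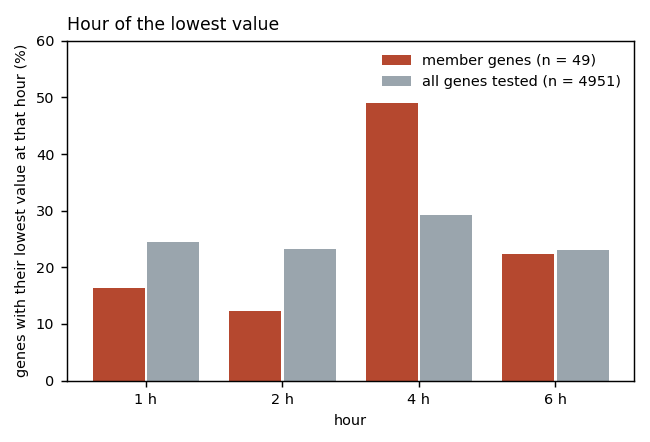
Share of genes whose lowest of the 4 values lies at each hour, for the 49 tested member genes (left bars) and all 4951 genes tested (right bars). At 4 h the bars stand at 49% and 29.2%.

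By family, the 4 h array was lowest in 10 of 16 hnRNP genes, 4 of 8 SR genes, 3 of 8 SF3 genes, 3 of 5 Prp genes, 2 of 3 U2AF genes and 2 of 7 snRNP genes. The median of log2 at 4 h minus the mean of the other hours was -0.36 in the hnRNP genes, -0.31 in the Prp genes, -0.17 in the SF3 genes, -0.15 in the U2AF genes, -0.09 in the SR genes and 0.09 in the snRNP genes. Over the 49 members it was -0.12, and over all genes tested 0.02. Relative to the median of all genes, the members stood at -0.15 as deposited and at -0.17 after quantile normalisation, the hnRNP genes at -0.38 and -0.32, and the snRNP genes at 0.07 and 0.13. Scaling the arrays to 1 median shifts every member at 4 h by the same amount and takes the median of all genes to -0.17, so it leaves these relative values as they were by construction, and by that shift alone the snRNP median reads -0.10.

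**Figure D4:**
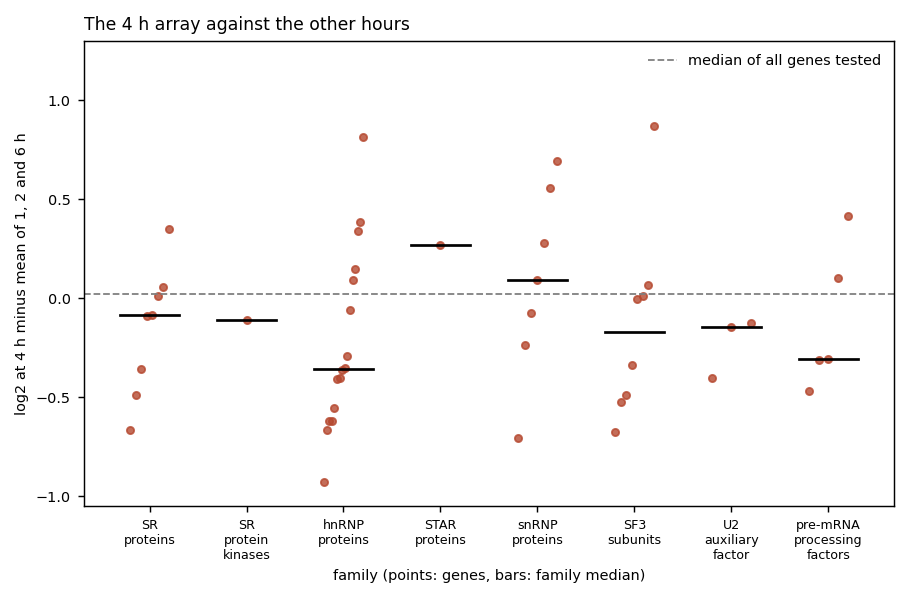
Log2 intensity at 4 h minus the mean of 1, 2 and 6 h for each tested member gene (points), by family, with the family median (bars) and the median of all genes tested (dashed line). The hnRNP median lies at -0.36 and the snRNP median at 0.09, with points of both families on either side of the dashed line.

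The count of members lowest at 4 h was 30 of 49 after median scaling, where all genes reached 46.9%, and 23 of 49 after quantile normalisation, where they reached 30.7%. With no filter it was 25 of 56, beside 23.3% of all genes. Values tied at the floor were there counted at the earliest hour, so the shares at 4 h can be too low among faint genes. The share of genes lowest at 4 h also moved with the signal level. With the tested genes cut by mean intensity into 4 bins of about equal size, from faint to bright, all genes were lowest at 4 h in 23.8%, 26.1%, 30.6% and 36.5%, while the members were lowest there in 2 of 10, 5 of 10, 9 of 13 and 8 of 16. The choroid plexus and the CA pyramidal and mossy cell marker sums were highest on the 4 h array and the granule cell and microglial sums lowest. Single markers differed: Wfs1 of the CA markers was highest at 1 h. Of the granule cell markers Tdo2, Neurod1 and Npy1r were lowest at 4 h, but Prox1, Calb1, Dsp and Ppp1r1a were not. Microglial C1qa, C1qb and Csf1r were lowest there, but Ctss and Cx3cr1 were not and C1qc was highest (1896). The part of these cell types in the members' values was not tested.

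Where a gene had more than 1 probe set, the second often ran differently. Of 8 second probe sets over the filter threshold, 3 had the same highest hour and 4 the same lowest hour as the one used, or 37.5% and 50%, against 31.6% and 32.6% of 779 such probe sets over all genes. The pair of Srsf2 probe sets shared both hours, the second reading 655, 586, 454 and 906, with the 6 h array 1.997 times the 4 h array where the first differed by 1.10-fold. Sf3b1 (361, 331, 386 and 454) and Hnrnpdl (1330.3, 1125, 1176 and 1357) also shared both with their second probe sets. The second Srsf3 probe set was lower at each step (390.2, 348, 284 and 255), which the first was not.

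The other 4 did not share the highest or the lowest hour. The second probe set of Hnrnpul2 read 444, 517, 487 and 352, without the dip at 4 h, and that of Prpf19 144, 186, 374 and 227, with its peak at the hour where the first was lowest. Sf3a2 read 3146, 1682, 2002 and 4148 on its second probe set, a span of 2.47-fold where the first spanned 1.23-fold, and Hnrnpa2b1 read 172, 137, 164 and 241. The fainter ones lay under the threshold. These were 111, 273, 70.2 and 279 for Srsf4, 65.6, 193, 152 and 108 for Snrpb2, 134, 23.6, 197 and 31.9 for Srsf10, 55.1, 14.6, 138 and 60.5 for Hnrnpab and 38.8, 26.2, 23.0 and 24.0 for Prpf39. Those of Hnrnpu (83.3, 31.2, 13.1 and 30.2), Snrpb (11.9, 79.4, 29.2 and 31.5) and another for Hnrnpdl (27.1, 25.5, 5.6 and 41.2) were under the floor at 3 of 4 hours. Srsf1 had 3 more, at 63.6, 91.9, 118 and 72.1, 103, 22.5, 30.8 and 61.8 and 39.8, 19.4, 111 and 14.4.

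**Figure D5:**
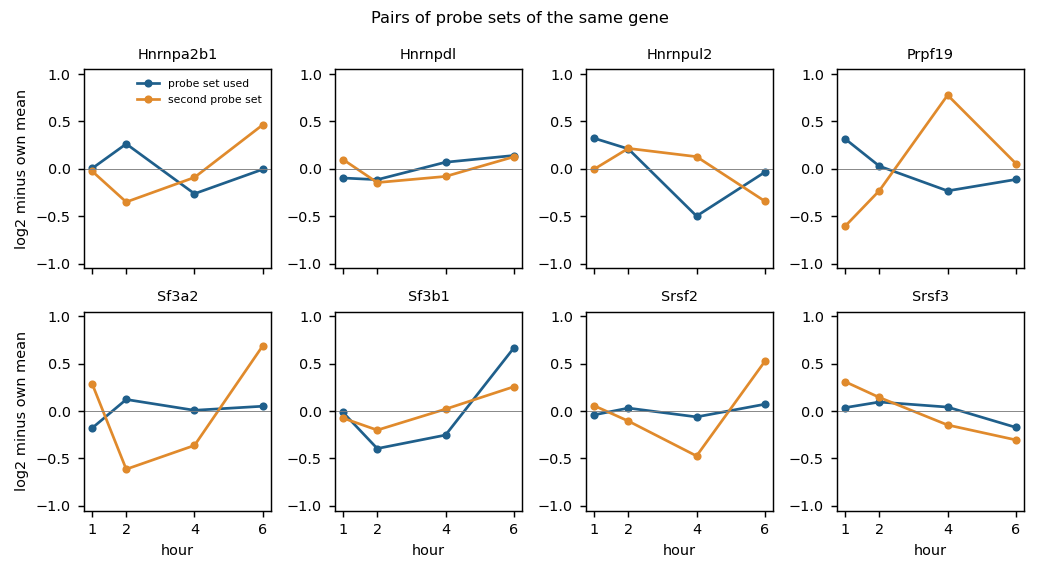
Log2 intensity minus the mean of the probe set over the 4 arrays, against hour, for the 8 member genes with a second probe set over the filter threshold (blue, probe set used; orange, second). The pairs of Sf3b1 and Hnrnpdl share their highest and lowest hours, although those of Hnrnpdl lie on opposite sides of 0 at 1 and 4 h, and those of Prpf19 run apart at 1 and 4 h.

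A list of other splicing and nuclear RNA-binding genes outside the name rule, such as the Rbfox, Celf, Mbnl, Elavl and Rbm families, had 85 genes on the array, of which 73 were tested. None was called (0 of 73, beside 0% of all genes), and 2 of 73 had an unadjusted p under 0.05 with limma, beside 2.02% of all genes. These were Clk1 and Cirbp, the cold-inducible RNA-binding protein, which read 1006, 502, 710.0 and 346. The Cirbp slope was -0.23 ± 0.09 log2 per h (SE, n = 4), with the 1 h array highest and the 6 h array lowest, and -0.13 and -0.11 without the 1 h and the 6 h sample. Of the 73 genes, 33 had positive and 40 negative slopes, and 6 spanned over 2-fold (8.22%, beside 15% of all genes). The 4 h array was lowest in 28 of 73, beside 29.2% of all genes, and highest in 21 of 73, beside 31.4%. The median at 4 h against the other hours was -0.06, compared with -0.12 in the members and 0.02 in all genes tested.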

How the data were processed

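RNA of 4 handled control samples was measured on oligonucleotide arrays with 12488 probe sets. The deposited table holds 1 intensity per probe set and array on a linear scale. The software, scaling and genome build behind it are not stated in the labels, and the equal trimmed means point to a common scaling of whole arrays. Of the probe sets, 66 array controls, 1193 without a symbol and 396 with several were left out of the gene-level fit, which leaves 10833 for 8251 genes. All 75 member probe sets matched a RefSeq gene of GRCm38.p6 by gene ID, and the symbols are those of the platform annotation.

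A floor (38.3), log2, the brightest probe set per gene and a filter on the mean gave 4951 genes. The trend on the hour used limma 3.58.1 under R 4.3.3 (lmFit and eBayes with an intensity trend, two-sided) and adjusted by Benjamini-Hochberg over all 4951 genes. Each gene had 2 residual degrees of freedom. The p-values and SEs use a variance moderated toward that of genes of like intensity, with a median of 10.4 prior degrees of freedom. The fit was tested on simulated data, where planted slopes as small as those of the members were not called. The number of arrays limits the precision. Start regions are RefSeq windows searched by exact letters.

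The members, lists and tests were chosen with earlier results of these data known. Named genes follow a rule: in each family the 3 brightest, the 8 smallest p, every span over 2-fold, every gene with several probe sets and every course in 1 direction. Remaining members, Ttr and 3 tissue markers were added to account for all genes, and Clk2 and Clk3 to stand beside Clk1 and Clk4.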

Additional observations from a re-analysis of the deposited data

Results flagged for a closer look

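The 4 values of each of the 75 member probe sets and of 7 other probe sets named in the text were checked for 1 array apart from the rest, by the gap to the nearest value as a share of the whole range on the floored log2 scale, judged by Dixon's limit for 4 values. In 8 of 82 a single array stood apart, and 6 of these 8 have a value at the floor. The limit's rate of about 1 in 20 holds for values without a floor, so it is no background for this count. The arrays also differ in hour, so none of these is a departure from true replicates.

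Of the tested genes 2 were among them. Khdrbs1, the Sam68 gene, was low at 6 h (ratio 0.852), with values of 257, 251, 223 and 98.2. Calb1, the granule cell marker, was high at 2 h (ratio 0.831), with 2542, 3026, 2506 and 2453. Srpk2, not tested, was low at 4 h (ratio 0.91), with 143, 143, 33.1 and 127.

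The other 5 are fainter probe sets of genes that have a brighter one, and all have values under the floor of 38.3. A probe set of Srsf1 was high at 4 h (ratio 0.964, 39.8, 19.4, 111 and 14.4). Probe sets of Hnrnpu at 1 h (83.3, 31.2, 13.1 and 30.2), Prpf39 at 1 h (38.8, 26.2, 23.0 and 24.0), Snrpb at 2 h (11.9, 79.4, 29.2 and 31.5) and Hnrnpdl at 6 h (27.1, 25.5, 5.6 and 41.2) had 1 value over the floor and 3 under it, which gives a ratio of 1 by construction.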

How the results depend on the processing

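The count of members called by the trend was 0 under each of the 11 alternatives with all 4 samples and without any 1 sample. Over all genes it was 13 of 4951 without the 1 h sample, 9 of 4951 without the 6 h sample and 0 in the other fits. The smallest adjusted p among members over these fits with limma was 0.35, without the 6 h sample. The count at an unadjusted p under 0.05, 2 as reported, was 4 with no filter (56 genes, 7.14%, beside 3.09% of all genes). It was 1 with log2 of the hour (2.04%, beside 2.24%), and 1 to 6 without 1 sample, beside 1.84% to 9.74% of all genes. The count over 2-fold, 12 as reported, was 7 with log2(intensity + 50), which adds the same amount to each value (14.3%, beside 10% of all genes). It was 4 to 9 without 1 sample, beside 7.41% to 10.4% of all genes. The count lowest at 4 h, 24 of 49 or 49% as reported, was chosen after seeing the data. As a share it was smallest with every probe set fitted, 26 of 62 or 41.9%, beside 28.4% of all probe sets fitted. It was largest, 30 of 49 or 61.2%, after median scaling (beside 46.9% of all genes) and without the 6 h sample (beside 34.1%). Without probe sets of shared or rule-breaking design, also added after seeing the data, it was 21 of 43 or 48.8%, beside 29%. Of the 11 slopes followed, 8 kept their sign without the 6 h sample, and Sf3b1 (-0.058), Snrp1c-ps2 (-0.15) and Srsf4 (0.059) turned. At the other end of the range over single samples left out, without the 1 h sample, these were 0.27, 0.33 and -0.28. Under the other alternatives and without another sample, every one of the 11 that could be fitted kept its sign: 10 with the mean of all probe sets and 9 without shared probe sets. Several of these alternatives could not change a sign. Changing the floor or the filter, fitting every probe set, dropping the intensity trend of eBayes and leaving out shared probe sets kept each fitted slope as it was. No paired analysis was possible because the labels give 1 group with 1 sample per hour. A single array per hour limits every difference between hours.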
